A study of Mus musculus with 8 samples.

Results

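The DNA replication machinery was examined here as a fixed set of 43 genes, matched by symbol among the 25239 gene symbols counted in E14.5 mouse fetal ovaries. They encode the proteins that license origins, build the replicative helicase, synthesise DNA and join the new strands. They were chosen by name and function, with earlier results of these data known. RNA-Seq had been performed on whole ovaries of 4 control and 4 Bmpr1a-cKO libraries, each pooled from 2 embryos. Control embryos were Bmpr1a fl/fl and Bmpr1a-cKO embryos were Bmpr1a fl/fl; Oct4-Cre Cre/WT, all female and on a C57BL/6 background. Both groups came from dams given 1 mg 4-hydroxytamoxifen and 0.5 mg progesterone at 9.5 dpc and again at 10.5 dpc and 11.5 dpc, so the controls carried the floxed alleles and the drug exposure but no Cre. The tamoxifen-inducible Oct4-Cre line deletes Bmpr1a, which encodes a type I BMP receptor, in germ cells, while the libraries also hold the RNA of all ovarian somatic cells. The effect of carrying Cre and that of losing Bmpr1a cannot be told apart in this design. Embryos came from 6 litters that were not named per library, and p-values therefore measure the spread between these pools.

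DNA replication runs in steps that each complex carries out in turn. The origin recognition complex, CDC6 and CDT1 load the MCM helicase ring onto DNA before S phase, geminin blocks reloading, and the DBF4-dependent kinase with CDC45, GINS and MCM10 turns the ring into a moving helicase. Polymerase alpha-primase lays down primers, replication factor C loads the PCNA clamp, polymerases epsilon and delta copy the leading and lagging strands, replication protein A covers single-stranded DNA, and FEN1 and LIG1 join Okazaki fragments. In the fetal ovary at this stage, germ cells leave the mitotic cycle and replicate once more before meiosis, while some somatic cells go on dividing.

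The libraries held 8562961 to 15365052 counts, and their totals did not separate by genotype (exact permutation test, two-sided, p = 0.8, adjusted over 2 tests p = 0.8). The TMM scaling factors ran from 1.002 to 1.033 for controls but from 0.972 to 0.9899 for Bmpr1a-cKO (two-sided p = 0.0286 by exact permutation, which is the lowest p possible with 4 libraries per genotype, adjusted p = 0.0572). Bmpr1a itself had 199.5, 236.5, 220.5 and 215.5 CPM (counts relative to the scaled library total) in control and 184.9, 194.7, 189.8 and 209.1 CPM in Bmpr1a-cKO libraries, which overlapped (log2FC −0.16 ± 0.06, SE; edgeR adjusted p = 0.0692). The somatic cells keep the gene by design, and their part in this overlap was not tested. By qRT-PCR the paper reports significantly lower Bmpr1a in Bmpr1a-cKO ovaries, and it reports a loss of BMPR1A staining from germ cells. Summed germ cell markers spanned 691 to 917 CPM in control and 729 to 1134 CPM in Bmpr1a-cKO libraries, and of 9 tested Dazl (log2FC 0.63), Dnd1 (0.78) and Tdrd12 (1.54) were higher, Mael (−0.80) and Tdrd9 (−0.63) were lower and 4 did not pass. Pregranulosa markers summed to 1846 to 2162 against 1607 to 1908 CPM, with 6 of 8 lower (12.5% of all genes), among them Foxl2 (−0.57). The 6 stroma markers summed to 1616 to 2140 against 1611 to 2012 CPM and the 6 endothelium markers to 274 to 327 against 257 to 298 CPM, with log2FC of −0.11 to 0.03 and −0.18 to 0.02, and did not pass. Macrophage markers summed to 33.1 to 41.3 against 44.0 to 55.4 CPM, with 4 of 6 higher (17.3% of all genes). Among the higher ones were C1qa (0.69), C1qb (0.70) and Adgre1 (0.78), on 31 to 80, 28 to 118 and 36 to 100 counts per library. C1qa and C1qb overlapped between genotypes. The Sertoli cell list summed to 39.8 to 55.7 against 86.6 to 116 CPM with Dmrt1. Without it, the sums were 14.1 to 16.3 against 10.8 to 11.6 CPM. Dmrt1 was higher (1.63), and the paper treats it among markers of early germ cells and pluripotency. Sox9 and Cyp26b1 (−0.61) were lower and Amh stayed at or below 1.499 CPM in all libraries. The mesonephros list summed to 16.7 to 21.5 against 11.8 to 21.2 CPM, with log2FC of −0.73 to −0.15 that did not pass. Of the erythroid list 4 haemoglobin genes were listed at 0 counts in all libraries, while Alas2 (log2FC −0.02) did not pass. The part of these cell type differences in the results below was not tested.

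All 43 replication genes were expressed in fetal ovaries of both genotypes and all passed the filter on low counts. Of these, 22 were higher in Bmpr1a-cKO ovaries at an FDR below 0.05 (17.3% of the 14249 genes tested), 5 were lower (12.5% of all genes) and 16 did not pass. The same counts were 20 and 5 with DESeq2 (15.6% and 12.4% of all genes) and 22 and 5 with limma-voom (17.7% and 12.9% of all genes). Their median log2FC was 0.196, beside a median of −0.00416 over all genes, with 32 values above 0 and 11 below. With the additional requirement of an absolute log2FC above 0.5, 4 genes, Rfc5, Mcm10, Rpa1 and Mcm2, were upregulated (6.11% of all genes) and 1, Orc1, was downregulated (4.06% of all genes). In 15 of the 43 every Bmpr1a-cKO library lay above every control library (16.1% of all genes), and in 3 every one lay below (11.7% of all genes). The summed level of the set spanned 3244 to 3733 CPM in control libraries and 3796 to 4057 CPM in Bmpr1a-cKO libraries, which did not overlap. As a share of all counts, without the scaling factors, the ranges met, at 0.335% to 0.375% and 0.372% to 0.395%. In whole-ovary RNA, a change in the number of cells of a type and one in the RNA per cell cannot be told apart.

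**Figure D1:**
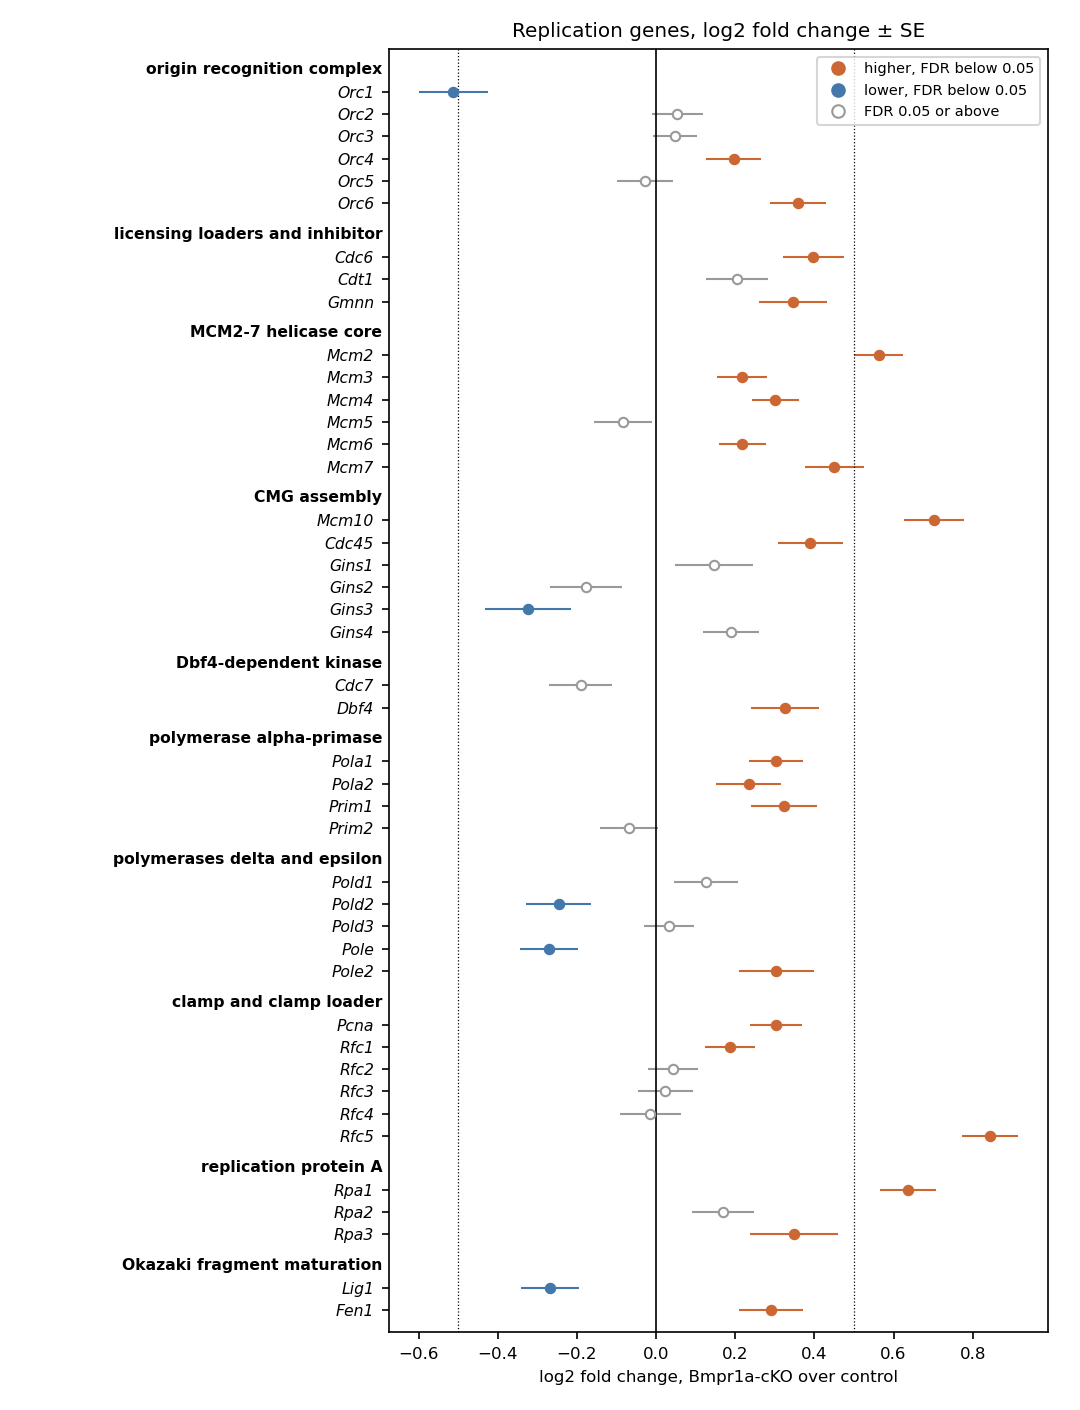
Log2 fold change of Bmpr1a-cKO over control (x axis) with its SE for each of the 43 replication genes, grouped by complex, with 4 libraries per genotype. Filled points passed an FDR of 0.05, dotted lines mark ±0.5, and subunits of one complex are seen on both sides of 0, from Orc1 at −0.51 to Rfc5 at 0.84.

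These counts depended on scaling by the bulk of genes. When libraries were instead scaled to their summed germ cell markers, the median over all genes moved to −0.301 and that of the replication genes to −0.0941, which is 0.207 above all genes, compared with 0.200 in the analysis above. With that scaling, Rfc5 alone remained significantly higher and 6 genes were lower, beside 2.64% and 16.5% of all genes. The largest term of the germ cell marker sum was Dazl, which was itself called higher. Its mean CPM was 326.6 for controls against 505.9 for Bmpr1a-cKO. Of the 9 markers tested, 5 had a log2FC above 0 and 4 below. The paper also lists Dazl as upregulated after the loss of Bmpr1a. Scaling without Dazl was not tested, so these values cannot be read as corrected for germ cell number alone. Scaled by library size alone, 16 replication genes were higher and 6 lower, while 13.1% of all genes were higher and 17.3% lower. The lead of the set over the median gene lay between 0.175 and 0.224 in all 19 other analyses, while the number of calls varied. The count of higher genes was 14 without control library 4, and 17 to 22 without any other library. Of all genes, 13.1% were higher without control library 4 and 13.2% to 19.4% without any other library. The count of lower genes was 3 without control library 1, without control library 3, without Bmpr1a-cKO library 2 or without Bmpr1a-cKO library 3. In these fits 9.18%, 10.9%, 8.49% and 9.21% of all genes were lower, in that order.

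Libraries of 1 genotype were close to each other. The coefficient of variation of a replication gene had a median of 7.63% over control libraries, from 1.91% for Prim2 to 13.7% for Pold1, and a median of 6.27% over Bmpr1a-cKO libraries, from 1.18% for Pole2 to 16.4% for Rpa3. Control library 3 held the highest control value for 30 of the 43 genes and control library 4 the lowest for 24. Bmpr1a-cKO library 1 held the lowest Bmpr1a-cKO value for 22 genes, and it also had the fewest counts, 8562961, and the lowest germ cell marker sum of its genotype, 729 CPM. Without that library, 22 replication genes were higher and 4 lower, beside 19.4% and 15.5% of all genes.

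Levels of different genes were compared per kilobase of the principal coding transcript. Pcna, the sliding clamp, had the highest level in control ovaries (102 ± 4.37 CPM per kb, SD, n = 4), followed by Mcm6 (91.7 ± 6.26 CPM per kb), with a gap wider than either SD, and by Lig1 (65.7 ± 6.99 CPM per kb) and Mcm7 (64.3 ± 7.35 CPM per kb), which did not differ beyond their spread. The other helicase ring genes lay between 40.6 CPM per kb for Mcm4 and 59.2 CPM per kb for Mcm5. At the low end were Gins3 at 6.23 ± 0.746, Mcm10 at 5.46 ± 0.479 and Gins2 at 5.46 ± 0.344 CPM per kb. In Bmpr1a-cKO ovaries Mcm10 stood at 8.85 ± 0.286 CPM per kb, above Gins3 at 4.96 ± 0.421 CPM per kb. Reads per library ranged from 100 for Gins3 to 4450 for Mcm6.

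**Figure D2:**
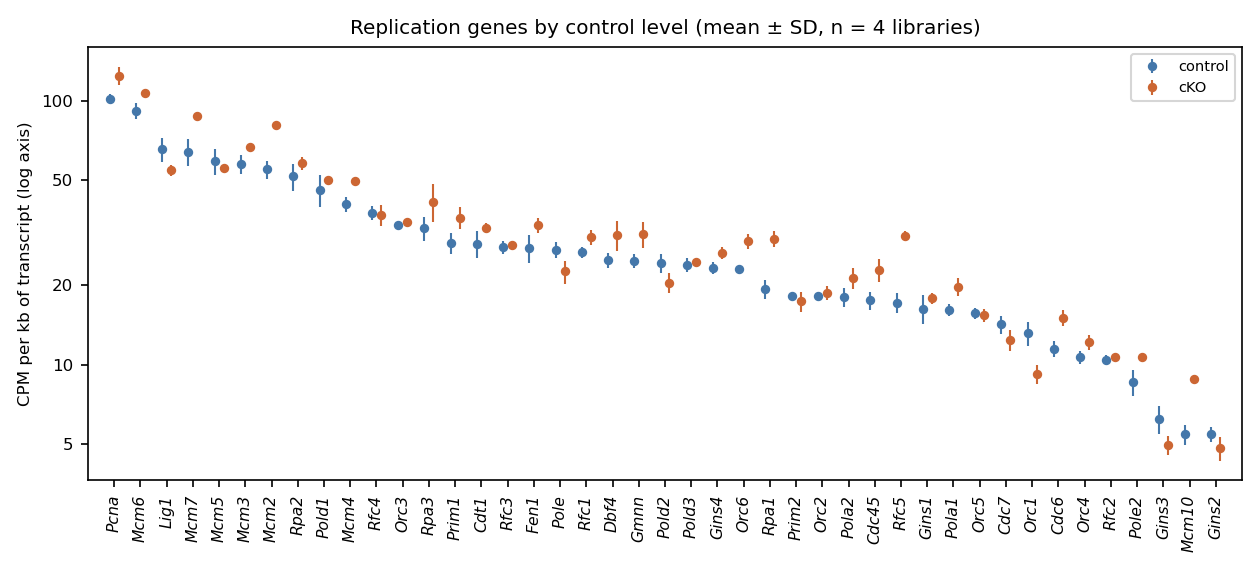
Level of the 43 replication genes in CPM per kb of transcript (y axis, log scale), ordered by control level, as mean ± SD of 4 control and 4 Bmpr1a-cKO libraries. Pcna and Mcm6 head the order at 102 and 91.7 CPM per kb in control ovaries, and the gaps between genotypes are widest on this scale for Rfc5, Mcm10, Rpa1 and Mcm2.

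Many replication genes carry binding letters of E2F factors, the regulators of S phase genes, next to their start. Promoter windows of 250 bases before to 50 after the start were taken from RefSeq (GRCm38.p6) for 35 of the 43 genes and searched on both strands for TTTCCCGC, TTTCGCGC, TTTGCCGC and TTTGGCGC, the last of which can overlap TTTCGCGC. The letters were found in 15 of the 35 genes (42.9%) and in 2.6% of the 27025 genes of the table, or in 34.1% of the 44 windows of replication genes and 2.26% of all 32851 windows. The 27025 genes were not limited to the 14249 tested here, whereas all 43 replication genes were tested. TTTGAA, the CHR of G2 and mitosis genes, was in 20% of the replication genes and 20.2% of all genes, and CCAAT was in 60% and 41.1%. Sites of genes that were higher (Cdc6, Mcm6, Pola1, Pole2), lower (Orc1, Gins3, Lig1) or did not pass (Mcm5) are shown here, with the matched letters in capitals, 5′ to 3′ along the gene.
Orc1, chr4:108579417-108579444: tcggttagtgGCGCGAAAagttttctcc
Cdc6, chr11:98908003-98908030: ccggtggagaGCGGGAAAtcgcctgggg
Mcm5, chr8:75109346-75109377: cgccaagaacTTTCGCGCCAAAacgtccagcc
Mcm6, chr1:128359735-128359825: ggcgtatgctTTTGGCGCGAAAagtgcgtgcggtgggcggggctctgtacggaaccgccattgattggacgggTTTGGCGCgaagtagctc
Gins3, chr8:95633508-95633535: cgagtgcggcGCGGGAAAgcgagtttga
Pola1, chrX:93632276-93632303: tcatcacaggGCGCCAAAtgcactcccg
Pole2, chr12:69228163-69228190: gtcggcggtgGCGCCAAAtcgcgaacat
Lig1, chr7:13278842-13278869: gccaaagtgcGCGCGAAAtctgtgtggc
Orc1, Cdc6, Mcm5, Gins3 and Lig1 lie on the plus strand of their chromosomes, and Mcm6, Pola1 and Pole2 on the minus strand. Mcm5 holds a pair of overlapping matches between bases −153 and −142 from the start, and Mcm6 holds 3 matches, at −110, −106 and −47. Of the 15 genes with the letters, 6 were higher and 3 lower, beside 17.3% and 12.5% of all genes. Their median log2FC was 0.127. Of the 20 genes without them in the window, 14 were higher and 1 lower, with a median of 0.297, and Rfc5, Mcm10, Rpa1 and Mcm2 were all in this group. The 8 genes without a promoter entry had a median of 0.095. These sets were not compared by a test. A match is a description of the letters, and their absence from a window says nothing of a factor.

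In the origin recognition complex, which marks origins, Orc1 was lower, Orc4 and Orc6 were higher and the other 3 genes did not pass. Orc1, which encodes the subunit that cycles with the cell cycle, had 39.8, 36.6, 45.4 and 37.0 CPM in control libraries 1 to 4 and 27.3, 24.7, 29.4 and 29.8 CPM in Bmpr1a-cKO libraries 1 to 4. All Bmpr1a-cKO libraries were below all controls, and Orc1 fell by 0.51 on the log2 scale (SE 0.09; edgeR adjusted p = 0.000462). It stayed significantly lower in all analyses, at −0.45 without control library 3 and −0.455 without Bmpr1a-cKO library 2, both short of the fold threshold. Orc6, the smallest subunit, had 29.0, 29.8, 30.6 and 29.2 CPM in control and 34.1, 38.6, 39.5 and 39.4 CPM in Bmpr1a-cKO ovaries. The ranges did not overlap, Bmpr1a-cKO library 1 was the lowest of its genotype, and the log2FC was 0.36 ± 0.07 (SE; edgeR adjusted p = 0.0014). Orc4 was higher by 0.20 with an edgeR adjusted p of 0.0475, a call kept in 5 of 19 other analyses and turned to −0.115 by germ cell marker scaling. Orc2, Orc3 and Orc5 had log2FC of 0.05, 0.05 and −0.03 and did not pass. Against the mean of the other 5 subunits in the same library, a ratio that does not depend on library scaling, Orc1 lay at −0.334 to −0.0182 in control and at −1.08 to −0.768 in Bmpr1a-cKO ovaries on the log2 scale. The same ratio for Orc6 was −0.772 to −0.689 in control against −0.418 to −0.262 in Bmpr1a-cKO ovaries. Antisense Gm12743 covers 10.8% of the Orc1 exons and Nif3l1 on the other strand 29.8% of those of Orc2, and whether counting used strand is not given in the sources used here.

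Of the licensing factors, Cdc6, the ATPase that helps to load the ring, was measured at 30.1, 27.7, 32.2 and 27.9 CPM in control and 35.6, 41.6, 39.8 and 37.7 CPM in Bmpr1a-cKO libraries. All Bmpr1a-cKO libraries were above the controls, with a log2FC of 0.40 ± 0.08 (SE; edgeR adjusted p = 0.00118). Gmnn, which encodes the CDT1 inhibitor geminin, was also higher (log2FC 0.35 ± 0.09, SE; edgeR adjusted p = 0.00722), although Bmpr1a-cKO library 1 at 29.3 CPM lay within the control range of 26.4 to 29.6 CPM. Cdt1, the loader that geminin blocks, had 72.7, 57.6, 64.3 and 57.0 CPM in control and 70.6, 73.5, 76.5 and 69.0 CPM in Bmpr1a-cKO ovaries. Control library 1 overlapped the Bmpr1a-cKO range, and the log2FC of 0.20 ± 0.08 (SE) did not pass (edgeR adjusted p = 0.0634), but did without that library (0.281). Under germ cell marker scaling Cdc6 and Gmnn were at 0.0981 and 0.0319 and Cdt1 was at −0.0912.

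In the MCM2-7 ring, the motor of the helicase, 5 of the 6 genes were higher in Bmpr1a-cKO ovaries. Of all genes, 17.3% were higher, and in 16.1% every Bmpr1a-cKO library lay above every control library. Mcm2 had 199.8, 179, 195 and 169 CPM in control and 274, 267, 284 and 269.6 CPM in Bmpr1a-cKO libraries. No Bmpr1a-cKO library overlapped the controls and the log2FC was 0.56 ± 0.06 (SE; edgeR adjusted p = 1.09e-05). The gene lies on chr6:88883474-88898780 (GRCm38). Mcm7 was higher by 0.45 ± 0.07 (SE), just short of the fold threshold, and Mcm4, Mcm6 and Mcm3 by 0.30, 0.22 and 0.22, all with an edgeR adjusted p below 0.05 and without overlap between the genotypes. Mcm5 had 209.8, 178, 228 and 185 CPM in control and 183, 191, 194 and 187.5 CPM in Bmpr1a-cKO libraries. The Bmpr1a-cKO values fell inside the control range, control libraries 1 and 3 were the high ones, and the log2FC of −0.08 ± 0.07 (SE) did not pass (edgeR adjusted p = 0.43). Under germ cell marker scaling Mcm3 and Mcm6 moved to −0.0672 and −0.06, and Mcm2, at 0.276, no longer passed.

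Within the ring, the balance of transcripts differed between genotypes. Relative to the mean of the other 5 ring genes in the same library, Mcm5 ran from −0.0724 to 0.159 in control and from −0.377 to −0.333 in Bmpr1a-cKO ovaries on the log2 scale. Mcm2 moved the other way, from a range of −0.116 to 0.0332 to one of 0.241 to 0.330, and so did Mcm7, from −0.0689 to 0.0736 to 0.155 to 0.260. The ratio of Mcm4 overlapped between genotypes, at −0.546 to −0.338 against −0.468 to −0.399. In levels per kb, Mcm5 stood at 59.2 ± 6.87 beside Mcm2 at 55.03 ± 4.24 CPM per kb in control ovaries (SD, n = 4), and at 55.8 ± 1.37 beside 81.3 ± 2.28 CPM per kb in Bmpr1a-cKO ovaries. The E2F letters were in the windows of Mcm3, Mcm5, Mcm6 and Mcm7 and not in that of Mcm2. These ratios were formed after the values had been seen and are given without a test.

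**Figure D3:**
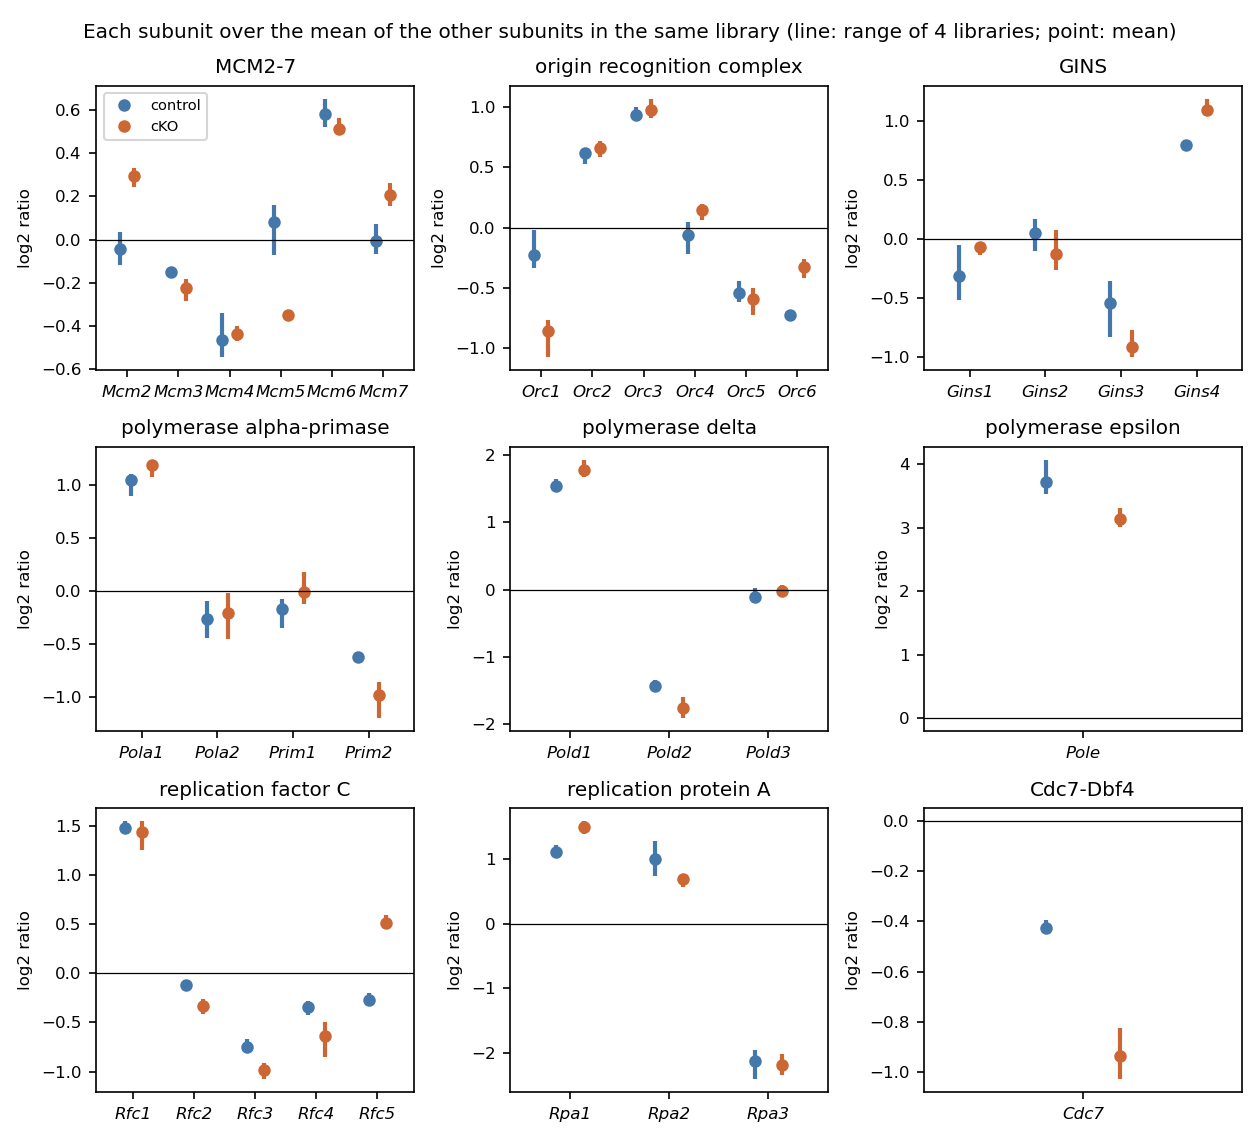
Log2 ratio of each subunit to the mean of the other subunits of its complex in the same library (y axis), for 9 complexes, with points for the mean and lines for the range of 4 control and 4 Bmpr1a-cKO libraries. The ranges are clearly apart for Orc1, Orc6, Mcm2, Mcm5, Rfc5 and Cdc7 and overlap for Mcm4, Orc2 and Rfc1; for complexes of 2 genes only 1 ratio is drawn.

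Helicase activation genes were split in the same manner. Mcm10, a factor that activates the assembled helicase, had 27.9, 24.7, 29.1 and 24.5 CPM in control and 41.6, 44.7, 43.8 and 42.3 CPM in Bmpr1a-cKO ovaries. The genotypes were well apart (log2FC 0.70 ± 0.08, SE; edgeR adjusted p = 7.64e-06), and Mcm10 lies on chr2:4989714-5012791. Cdc45, the partner of the ring in the moving helicase, was higher by 0.39 ± 0.08 (SE; edgeR adjusted p = 0.00244) without overlap. Gins3, of the GINS complex that completes that helicase, had 16.3, 12.9, 17.1 and 16.4 CPM in control and 11.9, 11.8, 12.2 and 14.1 CPM in Bmpr1a-cKO libraries. Control library 2 lay below Bmpr1a-cKO library 4, and the log2FC of −0.32 ± 0.11 (SE) passed with an edgeR adjusted p of 0.0356, which was lost when any of 6 of the 8 libraries was left out. Gins1, Gins2 and Gins4 did not pass, at 0.15, −0.18 and 0.19. Gse1 on the other strand covers 67.3% of the Gins2 exons. Relative to the other GINS genes, Gins4 lay at 0.762 to 0.841 in control against 1.05 to 1.19 in Bmpr1a-cKO ovaries on the log2 scale. With germ cell marker scaling Mcm10 and Cdc45 were at 0.407 and 0.0844, not past the FDR threshold.

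Cdc7 and Dbf4 encode the kinase and the activating subunit of the enzyme that fires origins. Dbf4 had 58.5, 58.7, 65.3 and 56.8 CPM in control and 60.3, 78.8, 80.5 and 78.8 CPM in Bmpr1a-cKO libraries. Bmpr1a-cKO library 1 lay within the controls and the other 3 lay above them, with a log2FC of 0.33 ± 0.09 (SE; edgeR adjusted p = 0.00989) that was 0.41 without that library. Cdc7 had 44.5, 42.9, 49.3 and 41.5 CPM in control and 34.0, 38.6, 40.6 and 42.0 CPM in Bmpr1a-cKO ovaries, where only library 4 reached the control range. Its log2FC of −0.19 ± 0.08 (SE) did not pass (edgeR adjusted p = 0.0867), but passed with upper-quartile scaling, library size alone and germ cell marker scaling, at −0.224, −0.242 and −0.5. The log2 ratio of Cdc7 to Dbf4 was −0.452 to −0.393 in control against −1.03 to −0.825 in Bmpr1a-cKO libraries, the latter including library 1.

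**Figure D4:**
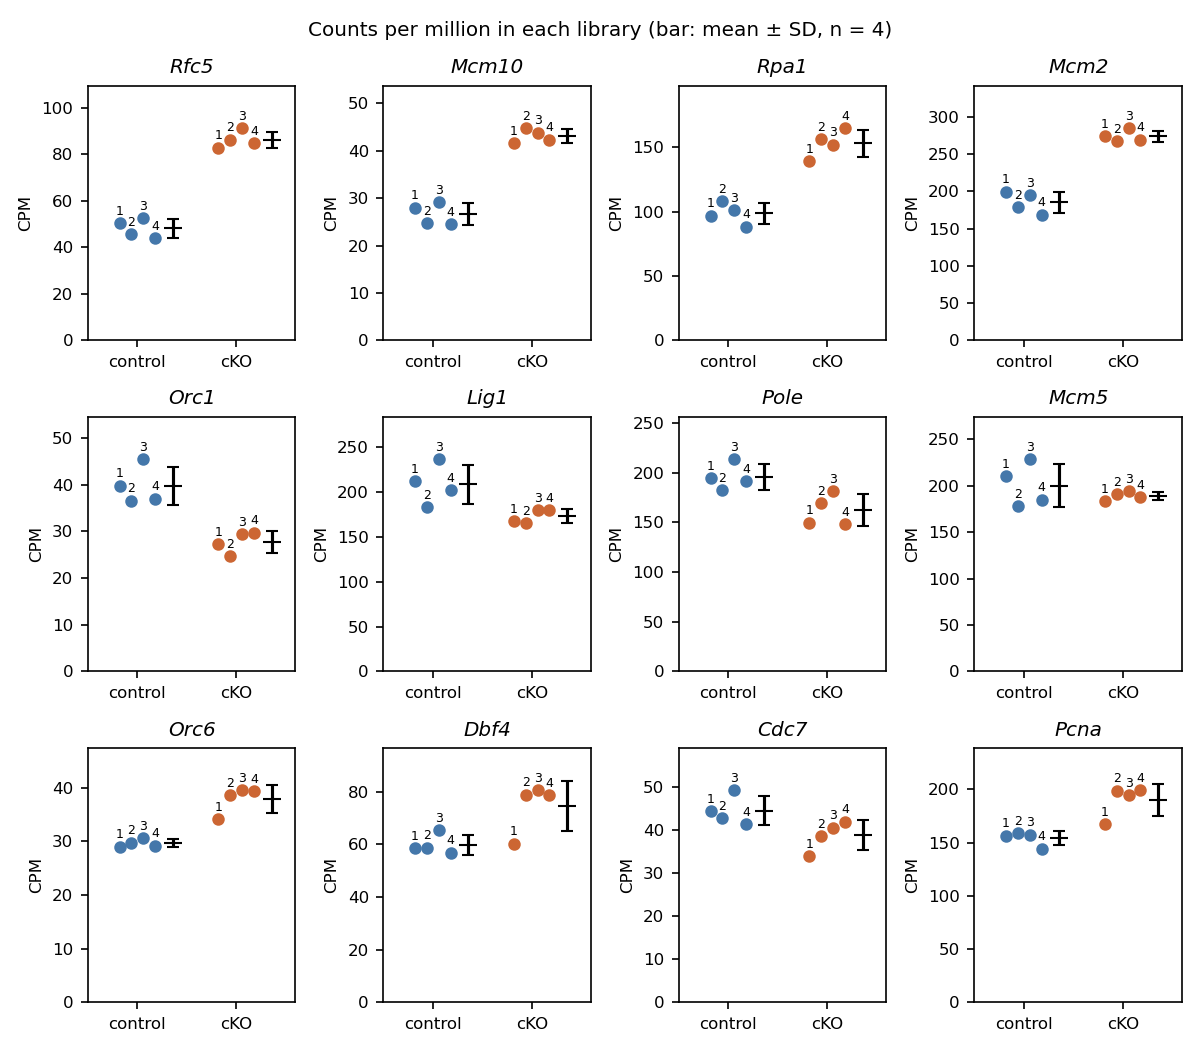
CPM in each library (y axis, numbered points) of 12 replication genes in control and Bmpr1a-cKO ovaries, with the mean ± SD of 4 libraries beside each group. Rfc5, Mcm10, Rpa1 and Mcm2 are higher and Orc1, Lig1 and Pole lower in Bmpr1a-cKO ovaries without overlap, whereas Mcm5 and Cdc7 overlap and Bmpr1a-cKO library 1 sits low for Orc6, Dbf4 and Pcna.

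Polymerase alpha-primase, which starts each new strand, had 3 of 4 genes higher, beside 17.3% of all genes. Prim1, the catalytic primase subunit, had 46.2, 47.6, 49.6 and 40.1 CPM in control and 49.96, 58.6, 56.5 and 63.2 CPM in Bmpr1a-cKO libraries. The ranges touched without overlap, between 49.6 and 49.96 CPM, and the log2FC was 0.32 ± 0.08 (SE; edgeR adjusted p = 0.00901). Pola1, the polymerase subunit, was higher by 0.30 ± 0.07 (SE; edgeR adjusted p = 0.00336) and Pola2, its regulatory partner, by 0.23 ± 0.08 (SE; edgeR adjusted p = 0.0413), the latter called in 9 of 19 other analyses. Prim2, the large primase subunit, had 35.4, 36.3, 37.0 and 35.7 CPM in control and 34.1, 37.8, 30.6 and 34.8 CPM in Bmpr1a-cKO ovaries. Its Bmpr1a-cKO values spread to both sides of the controls and its log2FC was −0.07 ± 0.07 (SE; edgeR adjusted p = 0.535). Under germ cell marker scaling Prim1 and Pola1 were at 0.0141 and 0.00215 and Pola2 was at −0.0577.

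Of the replicative polymerases, Pole, the catalytic subunit of polymerase epsilon, had 194.9, 182.5, 213.5 and 191.8 CPM in control and 149.8, 169.1, 181.8 and 148.1 CPM in Bmpr1a-cKO libraries. All Bmpr1a-cKO values were below the controls, although 181.8 and 182.5 CPM are close, and the log2FC was −0.27 ± 0.07 (SE; edgeR adjusted p = 0.0117), past the FDR threshold in all 19 other analyses. Pole2, the second subunit of the same enzyme, had 16.6, 14.97, 12.6 and 14.6 CPM in control and 18.4, 18.3, 18.2 and 17.9 CPM in Bmpr1a-cKO ovaries. It was higher without overlap, by 0.30 ± 0.09 (SE; edgeR adjusted p = 0.024), in 12 of 19 other analyses, and stood at −0.00209 under germ cell marker scaling. The log2 ratio of Pole to Pole2 was 3.54 to 4.07 in control against 3.02 to 3.31 in Bmpr1a-cKO libraries. In polymerase delta, Pold2 was lower (log2FC −0.25 ± 0.08, SE; edgeR adjusted p = 0.0347), a call lost without any of 5 libraries, while Pold1, the catalytic subunit, and Pold3 had log2FC of 0.13 and 0.03 and did not pass.

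Rfc5, a subunit of the clamp loader, had the highest log2FC of the 43 genes. It had 50.5, 45.6, 52.5 and 43.8 CPM in control and 82.7, 86.2, 91.1 and 84.7 CPM in Bmpr1a-cKO libraries. The lowest Bmpr1a-cKO library was far above the highest control, with a log2FC of 0.84 ± 0.07 (SE; edgeR adjusted p = 7.1e-07), and it passed both thresholds in all 19 other analyses, at 0.553 under germ cell marker scaling. The gene lies on chr5:117378103-117389047, and Wsb2 on the other strand covers 10.7% of its exons. Of the other loader subunits, 1 of 4 passed, while 17.3% of all genes were higher and 12.5% lower. Rfc4 had 47.7, 43.04, 49.4 and 44.7 CPM in control and 39.5, 46.9, 46.6 and 49.1 CPM in Bmpr1a-cKO libraries, which overlapped (log2FC −0.01 ± 0.08, SE; edgeR adjusted p = 0.911). Rfc2 and Rfc3 were at 0.04 and 0.02, and Rfc1, the large subunit, was higher by 0.19 ± 0.06 (SE; edgeR adjusted p = 0.0345) in 10 of 19 other analyses. Against the mean of the other 4 subunits, Rfc5 went from −0.323 to −0.203 in control to 0.478 to 0.597 in Bmpr1a-cKO ovaries on the log2 scale. Pcna, the clamp itself, was higher by 0.30 ± 0.07 (SE; edgeR adjusted p = 0.00272), with 156.5, 158.6, 157.5 and 144.4 CPM in control and 167.3, 198.7, 194.7 and 199.0 CPM in Bmpr1a-cKO libraries. No library overlapped, and Bmpr1a-cKO library 1 again lay nearest the controls. With germ cell marker scaling Pcna and Rfc1 were at −0.0017 and −0.0941.

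Replication protein A coats the single strands behind the helicase. Rpa1, its largest subunit, had 96.9, 108, 101 and 88.4 CPM in control and 139, 156, 152 and 165 CPM in Bmpr1a-cKO libraries. The genotypes were well apart, with a log2FC of 0.64 ± 0.07 (SE; edgeR adjusted p = 1.08e-05), and Rpa1 lies on chr11:75298166-75348324. Rpa2 had 95.3, 86.3, 109 and 85.0 CPM in control and 96.5, 105.7, 110 and 109 CPM in Bmpr1a-cKO ovaries. Control library 3 was as high as the upper Bmpr1a-cKO libraries, and the log2FC of 0.17 ± 0.08 (SE) did not pass (edgeR adjusted p = 0.119). Rpa2 did pass without control library 3 (0.24) or without Bmpr1a-cKO library 1. Rpa3 was higher by 0.35 ± 0.11 (SE; edgeR adjusted p = 0.0276), with Bmpr1a-cKO library 1 at 23.0 CPM inside the control range, and passed in 13 of 19 other analyses. The log2 ratio of Rpa1 to the other 2 subunits was 1.05 to 1.22 in control against 1.39 to 1.59 in Bmpr1a-cKO ovaries. Under germ cell marker scaling Rpa1 was at 0.337 and Rpa3 at 0.0151, neither past the FDR threshold.

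The pair that finishes Okazaki fragments moved in opposite directions. Lig1, the ligase that seals them, had 212, 183, 237 and 203 CPM in control and 167.5, 165, 180.3 and 179.7 CPM in Bmpr1a-cKO libraries. All Bmpr1a-cKO libraries were below the controls, by a log2FC of −0.27 ± 0.07 (SE; edgeR adjusted p = 0.0116), a call kept in all 19 other analyses. Fen1, the nuclease that trims the fragments, had 76.6, 60.1, 65.6 and 59.8 CPM in control and 75.0, 78.2, 86.9 and 80.4 CPM in Bmpr1a-cKO libraries. It was higher by 0.29 ± 0.08 (SE; edgeR adjusted p = 0.0136), although control library 1 lay within the Bmpr1a-cKO range, and was at −0.013 under germ cell marker scaling. Genes on the other strand, Gm10143 and Tmem258, cover 84.2% of the Fen1 exons, and without strand their reads cannot be told apart.

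Other genes that act with the machinery were followed through 6 lists of 67 genes, of which 66 were tested and Pold4, with 2 to 10 counts per library, was not. Of the 66, 26 were higher and 4 lower at an FDR below 0.05, with a median log2FC of 0.12, beside the 17.3% and 12.5% of all genes. Among 9 origin firing factors 3 were higher and 1 lower, from Rif1 (log2FC 0.57 ± 0.07, SE), which sets the timing of origins, to Ticrr (−0.27 ± 0.07, SE), which recruits CDC45. Among 23 fork factors 8 were higher and 15 did not pass, from Chaf1b (0.78 ± 0.09, SE), a subunit of the histone chaperone CAF-1, to Clspn (−0.23 ± 0.09, SE), the checkpoint mediator. Chaf1a, the partner of Chaf1b, was at −0.01 ± 0.06 (SE). Among 10 genes of nucleotide supply 6 were higher and 4 did not pass, from Dctd (0.57 ± 0.09, SE), dCMP deaminase, to Rrm2b (−0.17 ± 0.11, SE). Germ cell marker scaling left 2 of the 66 higher, beside 2.64% of all genes.

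The E2F and DP list had 6 of 10 genes higher (60%, beside 17.3% of all genes) and 1 lower (10%, beside 12.5%). E2f8 was at 20.9 to 23.9 CPM in control and 39.0 to 42.9 CPM in Bmpr1a-cKO libraries (log2FC 0.90 ± 0.07, SE; edgeR adjusted p = 6.22e-07), and E2f7 at 14.9 to 18.2 and 22.0 to 25.4 CPM (0.52 ± 0.09, SE; edgeR adjusted p = 0.000399). Both encode repressor E2Fs and neither overlapped between genotypes. E2f4, also a repressor class factor, was lower (−0.29 ± 0.09, SE; edgeR adjusted p = 0.0282). The activators E2f1 and E2f3 were higher, at 0.35 and 0.36, and E2f2 did not pass at −0.17.

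Among the 11 genes of S phase control 2 were higher (18.2%, beside 17.3% of all genes) and 1 lower (9.09%, beside 12.5%), and 2 cyclins moved in opposite directions. Ccna2, cyclin A2 of S phase and G2, had 111.5, 110.8, 112.9 and 101.5 CPM in control and 159.8, 169.9, 174.6 and 172.7 CPM in Bmpr1a-cKO ovaries (log2FC 0.63 ± 0.06, SE; edgeR adjusted p = 1.69e-06). Ccne2, cyclin E2 of the G1 to S transition, had 46.9, 40.8, 38.7 and 49.5 CPM in control and 21.9, 25.4, 29.2 and 34.7 CPM in Bmpr1a-cKO libraries (−0.65 ± 0.12, SE; edgeR adjusted p = 0.000762). Neither overlapped, and Ccne1 was at 0.06 and Cdk2 at 0.04 without passing. Of the MCM paralogues outside the ring, Mcm9, which acts in recombination repair, was higher (0.55 ± 0.07, SE; edgeR adjusted p = 4.36e-05) and its partner Mcm8 was at −0.06 ± 0.09 (SE). Mcmdc2, a meiotic recombination gene, had 3.54 to 6.94 CPM in control and 1.79 to 2.52 CPM in Bmpr1a-cKO libraries (−1.39 ± 0.22, SE; edgeR adjusted p = 0.000265), on 15 to 110 counts per library.

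**Figure D5:**
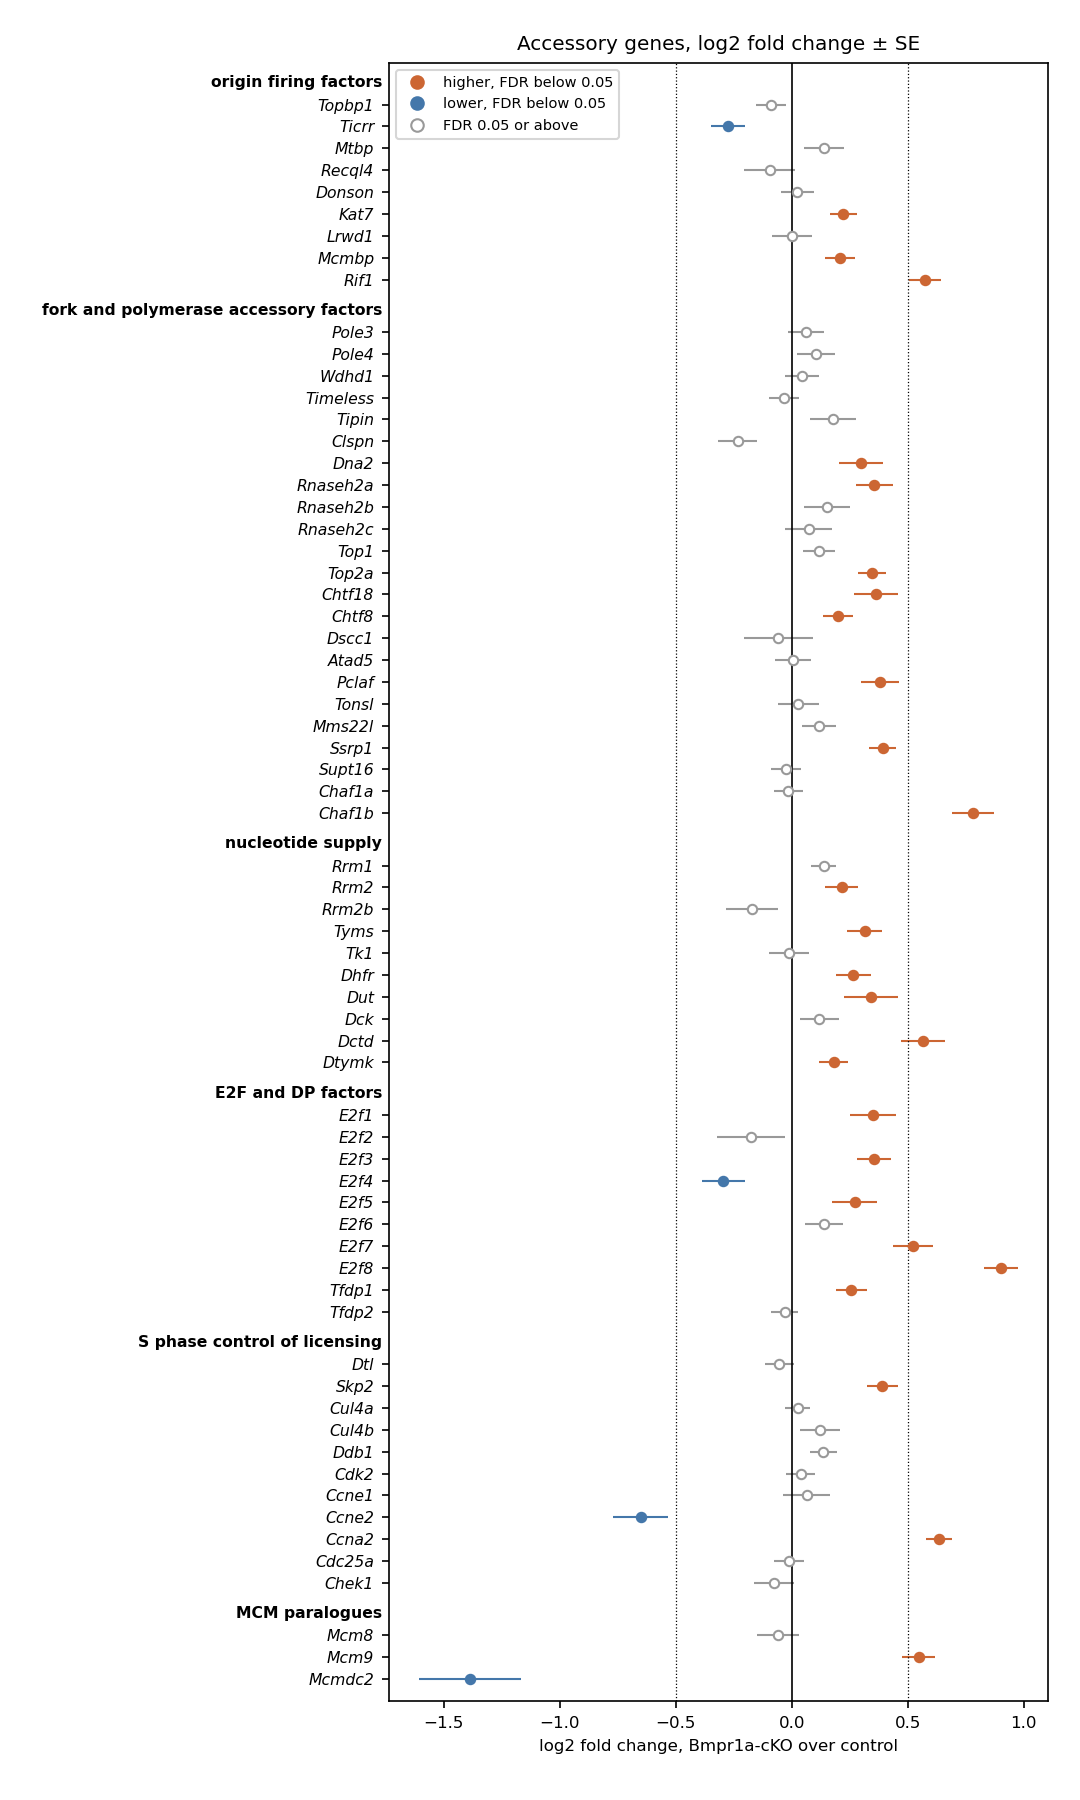
Log2 fold change of Bmpr1a-cKO over control (x axis) with its SE for the 66 tested accessory genes in 6 lists, with 4 libraries per genotype. Filled points passed an FDR of 0.05, and the range runs from Mcmdc2 at −1.39 to E2f8 at 0.90.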

How the data were processed

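RNA-Seq libraries (500 ng RNA, strand-specific paired-end kit) were trimmed by the authors with Trimmomatic 0.39, checked with FastQC 0.11.9, mapped with STAR 2.5.2 to mm10 and analysed with edgeR. The authors deposited counts per gene symbol and library as whole numbers without normalization. The annotation and the strand setting of counting are not given in the sources used here. A deposited table of CPM of the same libraries was not used.

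From the counts, low genes were removed with filterByExpr, TMM factors were applied, and the genotypes were compared by the edgeR 4.0.16 quasi-likelihood F test in R 4.3.3 (two-sided, Benjamini-Hochberg over 14249 genes). limma 3.58.1 (limma-voom) and DESeq2 1.42.0 were alternatives, beside other scalings, other filters, leaving out each library and a replicate block. Log2 CPM carried a prior count of 2. The biological coefficient of variation was 7.74%, and the SE of a log2FC had a median of 0.0739 over the 43 genes. The fit was tested on simulated data.

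The 43 genes, the gene lists and the tests were chosen with earlier results of these data known. Each of the 43 was given a fold change, with library values for those past both thresholds and for the highest and lowest log2FC of each of the 10 functional groups. Of the 6 accessory lists, genes past both thresholds and each list's highest and lowest were named, and of the marker lists, genes past both thresholds, with counts and summed CPM. Values of Bmpr1a, Pcna, Gmnn, Rpa3, Cdc45, Sox9, Amh, Alas2, Chaf1a, E2f1 to E2f3, Mcm8, Ccne1 and Cdk2 were given outside this rule, chosen after their values were seen. Levels per kb used the longest principal coding transcript of GENCODE vM21 (GRCm38). Exon overlaps came from the same annotation, and all 43 symbols matched it. The value of 1 marker gene is not reported here.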

Additional observations from a re-analysis of the deposited data

Results flagged for a closer look

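Within the 4 libraries of a genotype, 5 values of the 43 genes lay apart from the other 3 on the log2 CPM scale by Dixon's ratio, of 86 groups examined, where chance flags about 1 in 20. Of these, 3 were in Bmpr1a-cKO library 1, the one with the fewest counts. There, Orc6 was at 34.1 CPM beside 38.6 to 39.5, Dbf4 at 60.3 CPM beside 78.8 to 80.5, and Pcna at 167 CPM beside 195 to 199 in the others. In control library 4, Pcna was at 144 CPM beside 156 to 159, and Rfc3 at 33.7 CPM beside 37.6 to 37.9. Without Bmpr1a-cKO library 1, Orc6, Dbf4 and Pcna had log2FC of 0.402, 0.41 and 0.357 and stayed significantly higher. The cause was not tested.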

How the results depend on the processing

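Scaling to germ cell markers, a sum led by Dazl, was the one setting outside the leave-one-out fits that changed a count by over 1.5 times. It gave 1 replication gene upregulated, 6 downregulated and 1 higher at FDR below 0.05, beside 369, 2205 and 376 of all 14249 genes. It left 2 accessory genes higher, beside 2.64% of all genes, and gave a replication gene median of −0.0941. It turned the sign of Orc2 (−0.249), Orc3 (−0.241), Orc4 (−0.115), Cdt1 (−0.0912), Mcm3 (−0.0672), Mcm6 (−0.06), Gins1 (−0.148), Gins4 (−0.0967), Pola2 (−0.0577), Pold1 (−0.159), Pold3 (−0.259), Pole2 (−0.00209), Pcna (−0.0017), Rfc1 (−0.0941), Rfc2 (−0.244), Rfc3 (−0.263), Rpa2 (−0.125) and Fen1 (−0.013), with the median of all genes moved by −0.297. Library size alone turned Orc3 (−0.00331), Pold3 (−0.0187), Rfc2 (−0.00906) and Rfc3 (−0.0293), and upper-quartile scaling turned Pold3 (−0.000825) and Rfc3 (−0.0111). None of these passed the FDR threshold. Leaving out 1 library gave 4 to 5 upregulated, 0 to 1 downregulated, 14 to 22 higher and 3 to 5 lower replication genes, a median of 0.165 to 0.212, and 17 to 29 higher and 3 to 5 lower accessory genes, with Orc5 at −0.0596 to 0.00277, Pold3 at −0.0148 to 0.0537, Rfc3 at −0.0281 to 0.0435 and Rfc4 at −0.0605 to 0.0435. The accessory count was 17 without control library 4. In the leave-one-out fits, 13.1% to 19.4% of all genes were higher and 8.49% to 15.5% lower. Of 817 single-gene comparisons with the reported fit, 707 kept direction and side of the threshold, 79 lost the call, 8 of them with a turned sign, 8 gained it and 31 in all turned sign. A prior count of 0.5 left the difference of mean log2 CPM at its value.

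Genotypes share replicate numbers in the labels. Same-numbered libraries deviated together with correlations of 0.198, 0.161, 0.108 and −0.0871, so the numbers were not taken as pairs. With a replicate block, 24 replication genes were higher, 5 lower, 4 upregulated and 1 downregulated, with a median of 0.193, and 2715 of all genes were higher and 2056 lower. Calls of Cdt1 and Gins4 were gained and 0 were lost. Control libraries 1 and 2 correlated best with the Bmpr1a-cKO library of their own number, control libraries 3 and 4 with another.

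Depth limits Gins3 (100 to 260 counts per library) and Mcmdc2 (15 to 110). Of the named markers it also limits C1qa (31 to 80), C1qb (28 to 118), Adgre1 (36 to 100), Tdrd9 (48 to 141), Sox9 (60 to 152), Cyp26b1 (27 to 62) and Amh (2 to 16). Cell types, litters and the presence of Cre cannot be separated in whole-ovary pools.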
